A study of Mus musculus with 24 samples.

Results

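Gene-desert peaks of ARID1B, FOXP1, and TCF7L2 were taken from the cortex of mouse embryos. A peak was counted as a desert peak when its summit lay on chr1-19, more than 100 kb from every transcription start site (TSS) of GENCODE vM21, and outside every annotated gene body. Of 311477 peaks on these chromosomes, 7296 met this rule. Binding of these 3 transcriptional regulators (TRs) was mapped by chromatin immunoprecipitation followed by sequencing (ChIP-seq) in untreated wild-type embryos of stages E15.5 and E18.5, where E counts embryonic days. Each TR and stage has 2 biological replicates, and each replicate has its own input, which makes 12 ChIP libraries and 12 inputs, or 24 in all. Wild-type mice were kept on a CD1 background, and the whole cortex was used, so each value averages over the cell types of the tissue. The samples of TCF7L2 carry the older label TCF4, and the antibody was raised against TCF7L2. There is 1 peak list for each TR and stage, so no value below carries a spread between replicates. The lists are attached to the first replicate of each group and are taken as those of merged replicates, because the methods describe peaks called first on separate and then on merged replicates. The files themselves do not say which of these they hold. Intervals are 95% Wilson intervals. They cover counting error only, and neighbouring peaks are not independent.

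Gene deserts are long stretches without annotated genes, and many flank developmental regulators whose enhancers act over large distances. Enhancers far from a promoter are typically bound by several regulators at once, and a distal peak gives no direct evidence of the gene it acts on. ARID1B is a DNA-binding subunit of the BAF chromatin remodelling complex, which slides or evicts nucleosomes at enhancers. FOXP1 is a forkhead transcription factor of neuronal development, and TCF7L2 is the HMG-box factor through which Wnt signalling with beta-catenin reaches DNA. The neurogenic bHLH factors of the cortex bind E-boxes, and nuclear factor I proteins bind a half-site that is common in neural enhancers.

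3 sets of sequence show loci of all 3 TRs, of ARID1B alone, and of FOXP1 alone. The loci of 1 TR alone were chosen after their values were seen. A locus is the union of peaks from the 6 lists that overlap by at least 1 base. All sequences are 180 bp of the GRCm38 reference strand, 5′ to 3′, centred on the median summit of the locus. The first set holds the 4 desert loci with the highest lowest fold enrichment over all 6 lists, which are the strongest sites shared by all 3 TRs at both stages. Capitals mark the E-boxes CATCTG and CAGCTG on either strand.
Fut8-Gm6657 desert, chr12:78001937-78002116: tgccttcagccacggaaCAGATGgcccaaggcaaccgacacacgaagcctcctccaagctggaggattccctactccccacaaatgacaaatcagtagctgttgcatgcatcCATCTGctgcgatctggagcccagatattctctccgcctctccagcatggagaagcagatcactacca
Tex29-A230072I06Rik desert, chr8:12126769-12126948: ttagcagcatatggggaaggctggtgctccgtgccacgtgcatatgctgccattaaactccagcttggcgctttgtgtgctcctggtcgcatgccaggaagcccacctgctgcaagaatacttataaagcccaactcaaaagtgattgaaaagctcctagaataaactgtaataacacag
Tmem182-Pou3f3 desert, chr1:41027633-41027812: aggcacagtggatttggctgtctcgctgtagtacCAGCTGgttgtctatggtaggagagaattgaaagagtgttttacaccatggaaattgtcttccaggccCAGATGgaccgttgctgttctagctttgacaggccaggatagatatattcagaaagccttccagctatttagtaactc
Api5-Lrrc4c desert, chr2:95136710-95136889: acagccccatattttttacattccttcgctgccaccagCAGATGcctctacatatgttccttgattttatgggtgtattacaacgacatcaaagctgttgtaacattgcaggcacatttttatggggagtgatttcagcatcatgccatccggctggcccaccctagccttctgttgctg

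Both E-box types were counted within 90 bp of the centre. Of the 10 strongest shared loci, 6 held at least 1 of them, and of all 2863 desert loci 1357 did (47.4%, 45.6% to 49.2%). The Fut8-Gm6657 sequence holds 2 copies of CATCTG, the Tmem182-Pou3f3 sequence holds 1 copy of each type, and the Tex29-A230072I06Rik sequence holds 0. The second set holds the 2 strongest loci with ARID1B at both stages and no other TR, with the same use of capitals. The first has 1 copy of each E-box, and the second has 0. The second is made largely of imperfect tandem copies of a short sequence such as agcctgtccc. The repeat search described below used units of 2 and 3 bases only, so repeats of longer units were not counted in any list.
Kcnh7-Fign desert, chr2:63287335-63287514: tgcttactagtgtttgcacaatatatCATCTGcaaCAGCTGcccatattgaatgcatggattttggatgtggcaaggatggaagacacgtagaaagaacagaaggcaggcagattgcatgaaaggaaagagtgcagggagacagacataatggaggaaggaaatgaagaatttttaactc
Cdh26-Cdh4 desert, chr2:178622764-178622943: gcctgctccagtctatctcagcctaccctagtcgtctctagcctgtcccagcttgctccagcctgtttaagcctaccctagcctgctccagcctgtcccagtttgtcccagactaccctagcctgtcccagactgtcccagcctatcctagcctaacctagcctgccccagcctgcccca

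The third set holds loci of FOXP1 alone. The first pair had FOXP1 at both stages and the other 3 had FOXP1 at E18.5 only. Here the capitals mark runs of at least 3 tandem copies of the trinucleotide AAC, read on either strand. These runs reached 27 bp in the sequence between Adgrl2 and Adgrl4, 27 bp between Bmper and Npsr1, 57 bp between Slc35b3 and Ofcc1, 60 bp between Myc and Gsdmc, and 18 bp between Nmur2 and Gria1.
Adgrl2-Adgrl4 desert, chr3:150222965-150223144: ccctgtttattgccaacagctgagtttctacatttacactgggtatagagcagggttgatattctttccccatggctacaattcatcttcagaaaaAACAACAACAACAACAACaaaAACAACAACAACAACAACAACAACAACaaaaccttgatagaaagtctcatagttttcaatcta
Bmper-Npsr1 desert, chr9:23555940-23556119: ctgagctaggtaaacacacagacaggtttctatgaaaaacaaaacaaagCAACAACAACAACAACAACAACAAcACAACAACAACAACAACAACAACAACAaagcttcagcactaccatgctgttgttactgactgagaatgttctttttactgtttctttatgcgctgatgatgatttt
Slc35b3-Ofcc1 desert, chr13:39085466-39085645: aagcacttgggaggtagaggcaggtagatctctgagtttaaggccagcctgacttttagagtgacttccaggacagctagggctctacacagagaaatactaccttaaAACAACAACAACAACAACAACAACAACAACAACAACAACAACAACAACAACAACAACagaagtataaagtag
Myc-Gsdmc desert, chr15:62391420-62391599: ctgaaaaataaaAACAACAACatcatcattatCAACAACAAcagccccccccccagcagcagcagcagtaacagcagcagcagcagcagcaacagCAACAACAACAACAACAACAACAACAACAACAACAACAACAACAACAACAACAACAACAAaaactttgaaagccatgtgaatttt
Nmur2-Gria1 desert, chr11:56754445-56754624: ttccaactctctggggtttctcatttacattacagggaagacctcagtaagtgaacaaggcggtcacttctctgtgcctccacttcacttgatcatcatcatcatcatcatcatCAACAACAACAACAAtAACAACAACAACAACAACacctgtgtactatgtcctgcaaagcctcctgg

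Desert peaks were most frequent in the ARID1B lists. At E15.5, 2331 of 70709 ARID1B peaks lay in deserts, which is 3.30% (3.17% to 3.43%). FOXP1 had 1489 of 63281 peaks there, or 2.35% (2.24% to 2.47%), and TCF7L2 had 324 of 32579, or 0.995% (0.892% to 1.11%). At E18.5, the same counts were 2203 of 67787 for ARID1B (3.25%, 3.12% to 3.39%), 283 of 24526 for FOXP1 (1.15%, 1.03% to 1.30%), and 666 of 52595 for TCF7L2 (1.27%, 1.17% to 1.37%). The interval of ARID1B stood above those of the other TRs at both stages. The intervals of FOXP1 and TCF7L2 overlapped at E18.5 and were apart at E15.5. At E18.5 their order depended on the setting. FOXP1 was lower, with intervals apart, without AAC repeats (0.951% against 1.26%), among peaks with −log10 p of at least 15 (0.272% against 0.726%), and with protein-coding genes only (7.49% against 8.96%). FOXP1 was the higher of the pair, with overlapping intervals, beyond 200 kb (0.261% against 0.207%), with lists of equal length (1.15% against 1.02%), and with RefSeq transcripts added (0.734% against 0.667%). Shares depend on what counts as a gene: with protein-coding genes only, they were 17.0%, 13.4%, and 7.29% at E15.5 for ARID1B, FOXP1, and TCF7L2, and with RefSeq transcripts added they were 2.12%, 1.45%, and 0.503%. Desert sequence without unknown bases came to 166.3 Mb, or 6.94% of chr1-19, so every TR had fewer peaks per Mb in deserts than in the remaining genome. The density elsewhere, genes and promoters included, was 2.19 and 2.22 times that in deserts for ARID1B at E15.5 and E18.5. It was 3.10 and 6.39 times higher for FOXP1 and 7.43 and 5.82 times higher for TCF7L2.

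The depth behind the lists was recovered from the Poisson relation of fold enrichment (reads at the summit over background) and p-value. That relation gives the reads of whichever library was scaled to, ChIP or input, as 57.3 to 80.7 M in 5 lists and as 26.3 M for FOXP1 at E18.5. The lowest fold called in that list was 3.21, against 2.33 to 2.66 in the others, so FOXP1 sites below that fold were not detectable at E18.5. Numbers of FOXP1 peaks at the 2 stages are thus given side by side and not read as a change.

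With growing distance from a TSS, ARID1B thinned least. Outside genes, ARID1B at E15.5 had 19.4 peaks per Mb at 2 to 10 kb from a TSS and 12.4 beyond 250 kb, a ratio of 1.57. At E18.5 the ratio was 1.59, from 18.1 to 11.4 peaks per Mb. FOXP1 at E15.5 started at the same density as ARID1B, 19.5 peaks per Mb, and ended at 6.97, a ratio of 2.79. TCF7L2 fell from 7.91 to 1.03 peaks per Mb at E15.5 and from 14.8 to 2.19 at E18.5, ratios of 7.70 and 6.75. The FOXP1 list of E18.5 fell from 5.93 to 1.56 peaks per Mb, but stayed between 1.56 and 1.74 over the 3 desert bins. The most distant bin rests on 23 TCF7L2 peaks at E15.5 and on 35 FOXP1 peaks at E18.5.

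**Figure D1:**
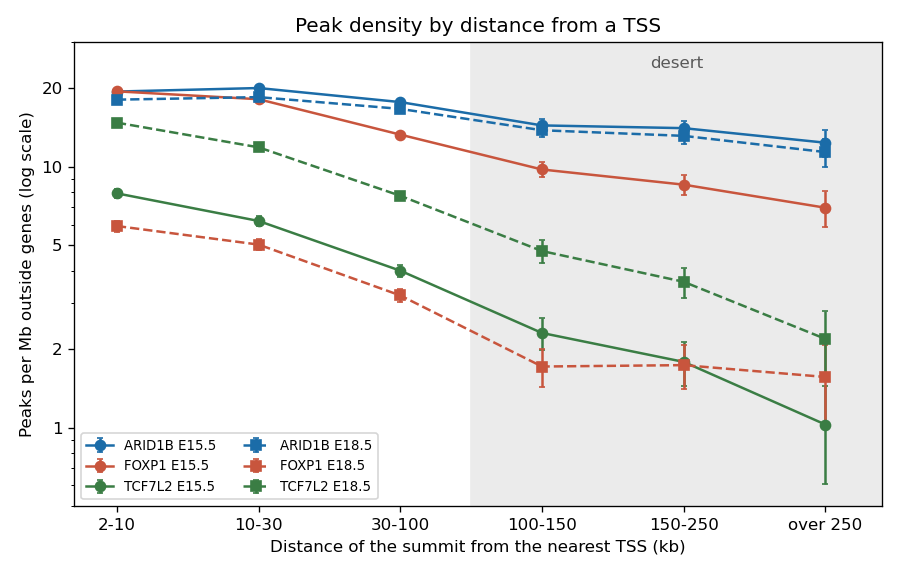
Peaks per Mb of sequence outside genes (log axis) against the distance of the summit from the nearest TSS in kb, for 6 lists, with bars for the Poisson 95% counting error. Lines of ARID1B fall least, at E15.5 from 17.7 peaks per Mb at 30 to 100 kb to 14.4 and then 12.4 in the grey desert bins. Those of TCF7L2 drop steadily.

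Desert peaks were about as high as the other distal peaks of the same list, and their median was lower than at TSSs in every list. Median fold enrichment of ARID1B at E15.5 was 3.93 in deserts, 3.75 in other intergenic sequence, 3.66 in gene bodies, and 4.19 within 2 kb of a TSS. For FOXP1 at E15.5, it was 3.8 in deserts, 3.92 in other intergenic sequence, and 5.70 within 2 kb of a TSS, and for TCF7L2 3.89, 3.79, and 5.15. At E18.5, FOXP1 stood at 4.97 in deserts, 4.82 in other intergenic sequence, and 7.18 within 2 kb of a TSS. In the same classes, ARID1B stood at 4.35, 4.21, and 4.49, and TCF7L2 at 3.39, 3.39, and 4.38. The median width of desert peaks lay between 285 bp (FOXP1, E18.5) and 409 bp (ARID1B, E15.5), against 317 to 423 bp in other intergenic sequence and 577 to 819 bp at TSSs. On either side of the distance limit, ARID1B peaks at E15.5 had a median fold of 4.01 in the last 10 kb before the limit (415 peaks) and 3.84 in the first 10 kb past it (370 peaks). For TCF7L2 peaks at E15.5 the median fold was higher past the limit, going from 3.68 and a median width of 345.5 bp (88 peaks) to 3.89 and 417 bp (62 peaks). At E18.5, its values went from 3.39 and 367 bp (167 peaks) to 3.28 and 349 bp (129 peaks). Soft-masked repeats made up 40.2% of desert sequence but, at the median, 1.5% to 12% of the 200 bp windows around desert summits. In 11.7% of the FOXP1 desert peaks at E18.5, the window was more than 50% masked, against 0.309% to 1.97% in the other lists. The desert peak farthest from a TSS, 590636 bp away, was an ARID1B peak of E15.5 between Dsel and Cntnap5a. That locus (chr1:114554484-114554905) carried ARID1B at fold 4.81 and FOXP1 at 3.42 at E15.5, and ARID1B at 5.47 at E18.5. The farthest TCF7L2 peak of either stage lay 463 kb from a TSS between Gm10800 and B230118H07Rik, at fold 3.27 at E15.5 and 3.17 at E18.5, with ARID1B at both stages. The farthest FOXP1 peak of E18.5 lay 441 kb from a TSS between Cdh2, which encodes N-cadherin, and the desmosomal cadherin gene Dsc3.

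Desert peaks merged into 2863 loci of 92808 in all, with a median length of 425 bp. ARID1B was present at 2594 of them (90.6%) at 1 or both stages. It was present at 79.4% of loci in other intergenic sequence, 78.2% in gene bodies, and 76.4% at TSSs. The most frequent combination was ARID1B at both stages and nothing else, at 657 loci (22.9%, against 13.9% of intergenic loci within 100 kb of a TSS). ARID1B at both stages with FOXP1 at E15.5 came next, at 567 loci (19.8% against 11.9%). All 6 lists met at 99 loci, 3.46% (2.85% to 4.19%) of desert loci, against 8.18% (7.85% to 8.52%) of other intergenic loci and 44.9% of TSS loci. FOXP1 at E15.5 alone was found at 5.06% of desert loci against 10.1% of other intergenic loci, and TCF7L2 at E18.5 alone at 1.5% against 4.96%. FOXP1 at E18.5 alone was found at 1.64% against 1.25%.

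**Figure D2:**
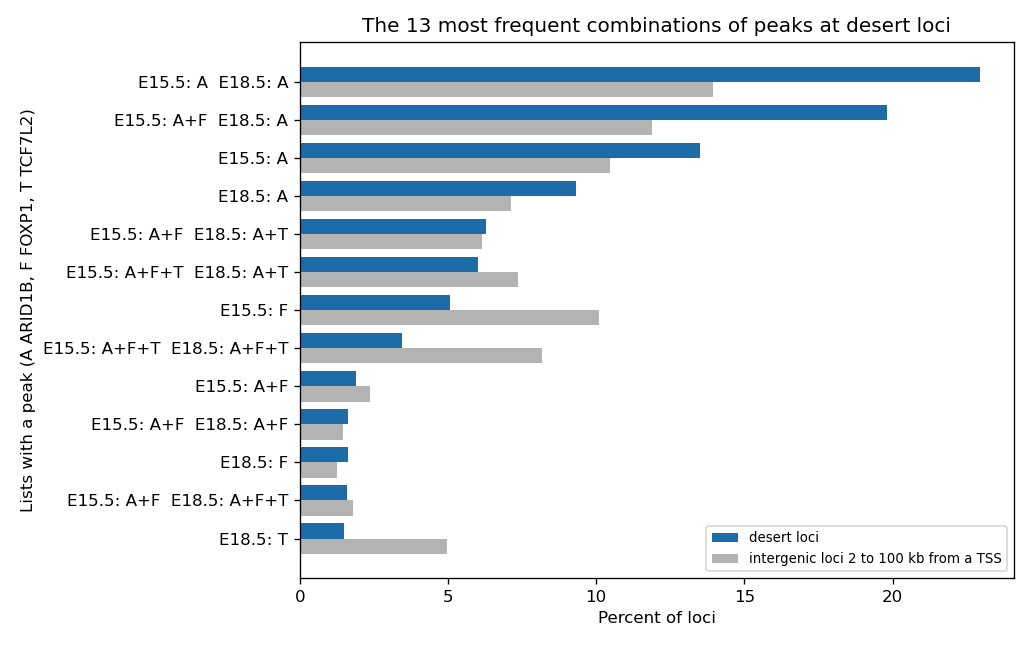
The 13 most frequent combinations of lists at the 2863 desert loci (blue) beside their share of intergenic loci 2 to 100 kb from a TSS (grey), in percent of loci; A, F and T stand for ARID1B, FOXP1 and TCF7L2. ARID1B at both stages (22.9% against 13.9%) and with FOXP1 at E15.5 added (19.8% against 11.9%) have the longer blue bar, whereas the grey bar is longer for all 6 lists (8.18% against 3.46%), for FOXP1 at E15.5 alone (10.1% against 5.06%) and for several others.

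At each stage, a smaller share of desert loci than of other intergenic loci had all 3 TRs. At E15.5, 290 of 2536 desert loci (11.4%, 10.3% to 12.7%) had all 3 TRs, against 19.6% of other intergenic loci, 17.6% in gene bodies, and 58.0% at TSSs. Over all loci of that stage, the share was 30.1%. At E18.5, it was 147 of 2353 desert loci (6.25%, 5.34% to 7.30%), against 12.8% of other intergenic loci and 22.9% of all loci. The desert shares of E15.5 and E18.5 moved both ways with the settings. They were 5.48% and 0.801% among peaks with −log10 p of at least 15, 5.62% and 2.76% with a reciprocal overlap of 50%, 15.1% and 8.34% with protein-coding genes only, and 17.0% and 8.94% with lists of equal length. The other classes were not computed under these settings. Of 309 desert loci with TCF7L2 at E15.5, 300 (97.1%) also had ARID1B and 296 (95.8%) also had FOXP1. In other intergenic sequence these shares were 91.7% and 93.4%. TCF7L2 was present at 13.1% of the 2289 desert loci with ARID1B, a longer list, against 25.5% in other intergenic sequence. FOXP1 was present at 52.6% of these desert loci, against 61.3% in other intergenic sequence. At E18.5, 87.2% of desert loci with TCF7L2 had ARID1B, against 71% in other intergenic sequence. FOXP1 loci at E15.5 had ARID1B in 85.3% of cases in deserts and in 72.5% in other intergenic sequence. At E18.5 the shares were 72.4% (66.9% to 77.3%) and 74.7% (73.3% to 76.0%), and these intervals overlapped. Where 2 lists met, their summits lay a median of 43 to 76 bp apart.

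The share of desert loci found at both stages differed among the TRs. Of the desert loci with ARID1B at either stage, 1817 of 2594 (70.0%, 68.3% to 71.8%) carried it at both, against 66.9% in other intergenic sequence and 70.1% over all loci. Of its E15.5 loci alone, 79.4% were present at E18.5. TCF7L2 was found at both stages at 289 of 636 loci (45.4%, 41.6% to 49.3%), against 46.9% in other intergenic sequence and 56.2% over all loci, and 93.5% of its E15.5 loci were present at E18.5. With lists of equal length, its share was 62.5% (56.9% to 67.9%). FOXP1 was found at both at 228 of 1463 loci (15.6%, 13.8% to 17.5%), against 24.6% in other intergenic sequence and 36.1% over all loci. This share was 32.2% with lists of equal length and 3.54% among peaks with −log10 p of at least 15. Seen from the shallower E18.5 list, 81.7% of its FOXP1 desert loci were present at E15.5, against 91.4% in other intergenic sequence and 96.0% over all loci. Fold enrichments of ARID1B at the 1817 shared loci rose and fell together (Pearson r = 0.949, Spearman rho = 0.862, as a description across loci that share libraries). For the 289 shared loci of TCF7L2, the values were 0.877 and 0.741, and for the 228 shared loci of FOXP1 they were 0.193 and 0.322. In other intergenic sequence, Pearson's r was 0.940 for ARID1B, 0.90 for TCF7L2, and 0.590 for FOXP1. Of the 228 FOXP1 loci, 15 had an E18.5 peak on the AAC repeats described next, and for the other 213 loci the FOXP1 values were 0.545 and 0.440.

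The FOXP1 peaks of E18.5 differed from the other lists in their sequence. After the third set of sequences above had been seen, windows of 200 bp around summits were searched for 5 tandem copies of AAC on either strand. Of the 283 FOXP1 desert peaks at E18.5, 59 (20.8%, 16.5% to 26.0%) held such a repeat. The share was 15 of 1489 (1.01%, 0.611% to 1.66%) for FOXP1 at E15.5, and 0 to 3 peaks in each list of ARID1B and TCF7L2. Of all 200 bp tiles of desert sequence, 0.252% held it. Of the other repeat units searched, AC was present in 2.83% of FOXP1 windows at E18.5 and in 2.30% of tiles. AAT was present in 4 windows (1.41%, 0.551% to 3.58%) against 0.166% of tiles, and AAG in 2 (0.707%, 0.194% to 2.54%) against 0.178%. The share of AAC repeats among the FOXP1 peaks of E18.5 was 9.15% in other intergenic sequence, 8.91% in gene bodies, and 0.629% at TSSs.

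**Figure D3:**
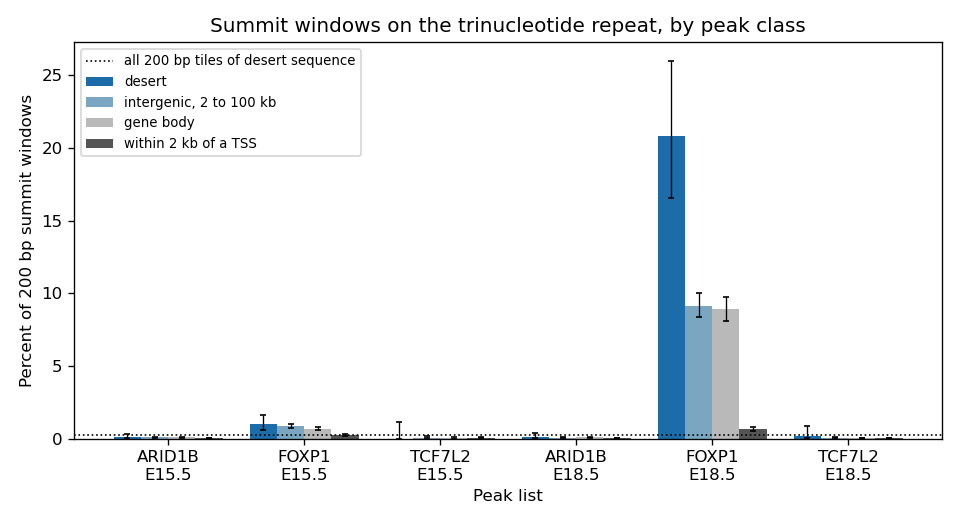
Percent of 200 bp summit windows that hold 5 tandem copies of the trinucleotide AAC or its reverse complement, for each list and peak class, with 95% Wilson intervals; the dotted line gives 0.252% for all desert tiles. The FOXP1 list of E18.5 stands at 20.8% in deserts, and no bar of the other lists exceeds 1.01%.

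The repeats were concentrated at loci that had FOXP1 at E18.5 and no other TR. Of the 47 desert loci with FOXP1 at E18.5 and nothing else, 44 (93.6%, 82.8% to 97.8%) held the repeat. It was present at 10 of 16 loci with FOXP1 alone at both stages, at 4 of 212 with FOXP1 at both stages and another TR, and at 0 of 145 with FOXP1 at E15.5 alone. Among the FOXP1 peaks of E18.5, 224 lay off the repeat, and 217 of these (96.9%) coincided with FOXP1 at E15.5. Of the 59 on the repeat, 15 (25.4%) did so, and 54 (91.5%) had no other TR. The peaks on repeats were narrower and higher, with a median width of 252 bp and fold of 5.41, against 297 bp and 4.75. They made up 8 of the 10 strongest FOXP1 desert peaks of E18.5. The strongest (chr3:150222834-150223289, between the adhesion receptor genes Adgrl2 and Adgrl4) reached a fold of 17.0 at E18.5 and 5.57 at E15.5. The longest AAC run in these windows had a median of 39.0 bp, and reads were single-end and 50 bp long per the labels. Whether read placement at repeats has a part in these peaks was not tested. Without windows on AAC repeats, FOXP1 had 224 desert peaks at E18.5, or 0.951% of its list.

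E-boxes were concentrated at the summits of desert peaks. CATCTG was found in 39.0% (37.0% to 40.9%) of ARID1B desert windows at E15.5, in 35.0% (32.6% to 37.4%) of FOXP1 windows, and in 38.0% (32.8% to 43.4%) of TCF7L2 windows. Of all desert tiles, 14.3% held it. At E18.5, the shares were 39.6%, 32.9%, and 34.7%. In intergenic peaks within 100 kb of a TSS, they were lower in every list, at 23.2% to 34.6%, and at TSSs 8.15% to 15.2%. The mean GC content of the ARID1B desert windows was 42.7% at E15.5, against 38.5% of all desert sequence, and the shares are not adjusted for it. Within 50 bp of the ARID1B summits of E15.5, there were 2.98 matches per kb, against 0.823 at 300 to 500 bp from the summit. This ratio of 3.62 compared with 2.31 to 3.75 in the other lists.

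**Figure D4:**
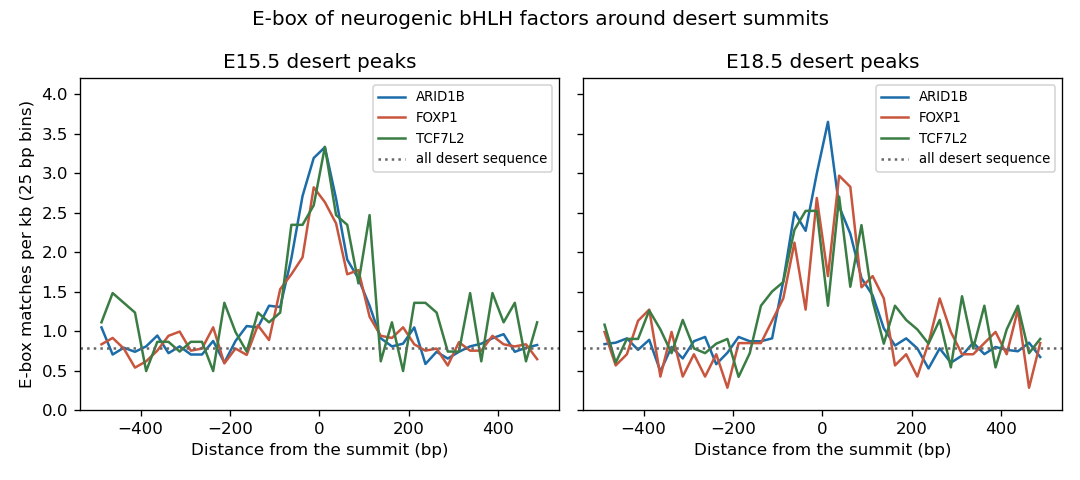
Matches to CATCTG on either strand per kb, in bins of 25 bp up to 500 bp on each side of desert summits, for the 3 TRs at E15.5 (left) and E18.5 (right); the dotted line is the rate of 0.784 per kb in all desert sequence. All lists are highest within 100 bp of the summit and fall towards the dotted line farther out. Single bins beyond 300 bp lie on both sides of it.

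Other motifs were counted in the same windows on both strands. The nuclear factor I half-site TTGGCA was present in 29.0% of ARID1B desert windows at E15.5, 27.3% of FOXP1 windows, and 30.2% of TCF7L2 windows, against 9.57% of tiles. In other intergenic windows of these lists it was present in 24.6%, 20.4%, and 20.5%. The E-box CAGCTG was present in 19.6%, 17.1%, and 24.4% of desert windows, against 5.29% of tiles. Its shares of other intergenic windows were close to these, at 20.8%, 16.6%, and 20.3%. The homeobox core TAATTA was present in 14.9% of ARID1B windows at E15.5 and in 8.48% (5.76% to 12.3%) of FOXP1 windows at E18.5, the highest and lowest of the 6 lists, against 9.28% of tiles. In other intergenic windows of these lists it was present in 11.3% and 5.03%. The forkhead motif TGTTTAC was present in 5.44% (4.4% to 6.71%) of FOXP1 windows at E15.5 and in 5.11% of ARID1B windows, against 3.24% of tiles. In other intergenic windows of these lists it was present in 3.51% and 4.10%. The TCF/LEF motif ATCAAAG was present in 5.2% (3.30% to 8.24%) of TCF7L2 windows at E15.5 and in 4.50% (3.17% to 6.36%) at E18.5, against 4.78% of tiles. In other intergenic windows of these lists it was present in 3.71% and 3.36%. The SOX motif ACAATG was present in 9.88% of TCF7L2 desert windows at E15.5, against 14.3% of tiles and 9.17% of other intergenic windows. ACAATG ranged from 9.31% in TCF7L2 windows to 15.9% (12.1% to 20.6%) in FOXP1 windows, both at E18.5. TTGGCA was lowest in FOXP1 windows at E18.5, at 19.1%. The consensus of the insulator protein CTCF, with up to 3 mismatches, was found in 2 of 2331 ARID1B windows and in 11 of 1489 FOXP1 windows (0.739%) at E15.5. It was found in 0.00939% of tiles, and in other intergenic peaks of E15.5 in 0.614% for ARID1B and 2.80% for FOXP1. A window may hold several of these motifs, and a match is a description, not a bound site.

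Motif content went with the combination of TRs. CATCTG was present at 47 of 99 loci in all 6 lists (47.5%, 37.9% to 57.2%) and at 289 of 657 loci of ARID1B alone at both stages (44%, 40.2% to 47.8%). It was present at 33 of 145 loci of FOXP1 alone at E15.5 (22.8%, 16.7% to 30.2%) and at 4 of 47 loci of FOXP1 alone at E18.5 (8.51%, 3.36% to 19.9%). CAGCTG was present at 15.6% of loci in 1 list, 19.2% in 2, 16.2% in 3, 21.2% in 4, 24.7% in 5, and 32.3% (23.9% to 42.0%) in all 6. Mean GC content of the windows was 42.5% for loci in 1 list and 47.2% for loci in all 6. These shares are not adjusted for it. Windows that were CpG-rich, with a GC content of at least 50% and an observed over expected CpG ratio of at least 0.6, were found at 7 of 99 loci in all 6 lists (7.07%, 3.47% to 13.9%) and at 5 of 892 loci in 1 list (0.561%, 0.240% to 1.31%).

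The 10 strongest shared loci were chosen by their lowest fold over the 6 lists, so their values are a description. The first, between the fucosyltransferase gene Fut8 and Gm6657 (chr12:78001666-78002569, 164 kb from a TSS), had ARID1B at 18.9, FOXP1 at 16.5, and TCF7L2 at 7.55 at E15.5. At E18.5 the same TRs stood at 23.8, 11.4, and 9.74. This locus was the strongest desert site of ARID1B at both stages and of FOXP1 at E15.5, and its 6 summits lay within 56 bp.

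The locus between Tmem182 and Pou3f3, which encodes a POU factor of upper-layer neurons (chr1:41026688-41028224), had ARID1B at 12.5, FOXP1 at 11.4, and TCF7L2 at 6.19 at E15.5. The values of E18.5 were 12.2, 7.03, and 6.68. The locus between Api5 and Lrrc4c, a postsynaptic adhesion gene (chr2:95136504-95137078), lay 257 kb from a TSS, with ARID1B at 16.2 and 18, FOXP1 at 10.6 and 6.15, and TCF7L2 at 6.61 and 6.24 at the 2 stages. The locus between Wwox and Maf, a transcription factor gene of interneurons (chr8:115428690-115429576), had ARID1B at 16.3 and 20.2, FOXP1 at 13.4 and 6.15, and TCF7L2 at 7.96 and 9.41. In these 4 loci, ARID1B was the highest of the TRs at each stage.

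The locus nearest to Tle4, a Groucho corepressor of deep-layer neurons (chr19:14435301-14436873), lay 160 kb from its TSS, with ARID1B at 11.7 and 11.6, FOXP1 at 9.87 and 5.71, and TCF7L2 at 7.13 and 7.44. The other 5 loci flanked Tex29 and A230072I06Rik, Bmper and Npsr1, Pard3 and Nrp1, Dok5 and Cbln4, and Adamts6 and Cwc27. Over the 10 loci, the lowest fold of any list was 5.67 to 7.55. By RefSeq, another annotation of the same build, a transcript starts within 1 kb of 3 of the 10 centres, those by Tle4 (0.0140 kb), Bmper (0.0340 kb), and Cbln4 (0.478 kb). Of all 7296 desert peaks, 237 lay within 2 kb of a RefSeq start and 62.4% met the distance rule by RefSeq too.

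Desert loci were spread unevenly over the stretches, which also differ in length. Of 1329 desert stretches with known sequence, 771 held a locus and 198 held at least 5. The 62 stretches with at least 10 loci held 869 loci, 30.4% of all, and 53.0% of loci lay within 10 kb of another, for which no expected value was computed. Among the 551 stretches over 100 kb, the median density was 11.9 loci per Mb, and 95 had none. The longest empty stretch, 720 kb on chromosome 3, lies between 9130204L05Rik and Pglyrp3.

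The 10 deserts with the most loci of all 3 TRs held 4 or 5 each. The stretch between Dok5 and Cbln4, a cerebellin family gene of synapse organisation, had 20 loci in 456 kb, 5 of them with all 3 TRs at 1 stage or both. It held 19 ARID1B peaks of E15.5 and 12 of E18.5. The strongest, 307 kb from the Dok5 end (chr2:171712738-171713777), had ARID1B at fold 16.9 and 19.8, FOXP1 at 11.1 and 6.30, and TCF7L2 at 6.82 and 5.69. Between Mterf1b and the Wnt receptor gene Fzd1, 5 of 10 loci had all 3 TRs. Each of the next 8 had 4 such loci. They were the stretches between the zinc finger gene Sall1 and Tox3 (24 loci), Cdh26 and Cdh4 (22), the polarity gene Pard3 and the semaphorin receptor gene Nrp1 (17), and the ephrin receptor gene Epha3 and Csnka2ip (15). The others lay between Sox9, a transcription factor of progenitors and glia, and Slc39a11 (14), Tex29 and A230072I06Rik (14), Tfap2c and Bmp7 (12), and Mpdz and Nfib, a nuclear factor I gene (12). The Sox9 stretch was the densest over 100 kb, with 118 loci per Mb. The stretch between Mpdz and Nfib had its 12 loci in 34.7 kb and lies 119 kb from Mpdz and 694 kb from Nfib. The stretch of 24 loci between Sall1 and Tox3 lies 723 kb from Sall1 and borders on Tox3.

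**Figure D5:**
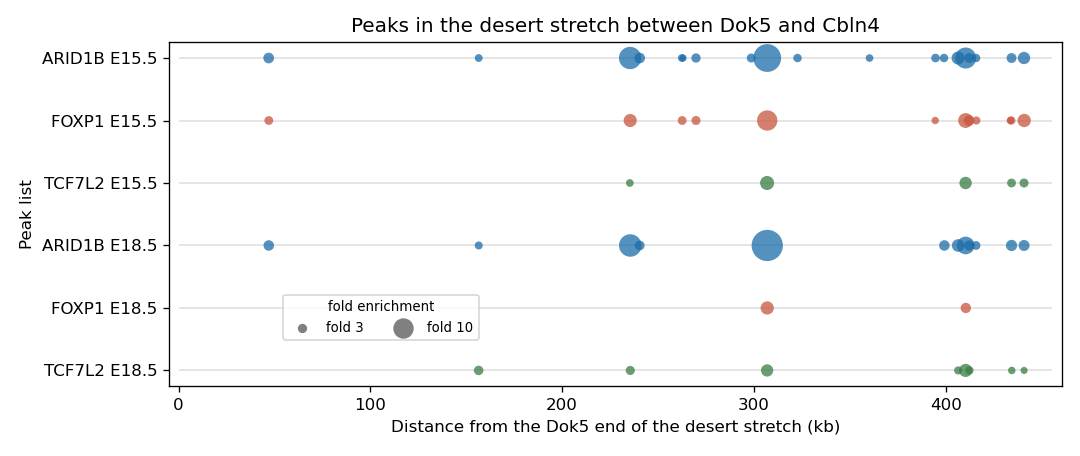
Summits in the 456 kb desert stretch between Dok5 and Cbln4, as distance in kb from its Dok5 end, with 1 row per list and the area of a point growing with fold enrichment. Sites at 235, 307, 410, 434 and 441 kb carry all 3 TRs at E15.5. The site at 307 kb has the highest fold in every row but that of TCF7L2 at E18.5, where the site at 410 kb stands higher (6.24 against 5.69).

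Flanking genes were described by lists of known function. Of 20780 protein-coding genes on chr1-19, 1298 (6.25%) were the nearest one to a desert stretch on 1 side, and 370 of these (28.5%) flanked at least 1 locus of all 3 TRs. The median density was 11.4 loci per Mb of flanked desert. A gene flanks its desert together with the gene on the other side, and a stretch counts for both, also where densities are pooled. The distance from a gene to the stretch it flanks was not limited. Which of the 2 genes a locus acts on was not measured.

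Of 59 genes of transcription factors and their cofactors in the cortex, 33 flanked a desert and 18 of these (54.5%) flanked a locus of all 3 TRs, with a median of 24.3 loci per Mb. Pooled over their deserts, the density was 29.1 loci per Mb, against 17.2 over all flanks. Tle4 flanked 38 loci over 3 stretches, Pou3f3 24 (7 with all 3 TRs), Zeb2 24, and Nfib 21 (6 with all 3 TRs). Auts2 and Nr2f1 flanked 17 each, Sox6 15, and Sox11, the SOXC gene of immature neurons, 11. Sox2, the factor of neural progenitors, flanked 8 loci, 3 of them with all 3 TRs. Arid1b itself flanked 16 loci, and 0 of them had all 3 TRs.

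Of 63 adhesion and guidance genes, 55 flanked a desert and 26 (47.3%) flanked a locus of all 3 TRs. Their deserts were long, with a median of 0.651 Mb per gene against 0.127 Mb over all flanks, and the median density was 12.4 loci per Mb. The pooled density was 14.6, below the 17.2 of all flanks, whereas the median stood above that of all flanks. The cadherin gene Cdh8 flanked 53 loci in 2.52 Mb, Cdh11 37, the ephrin receptor gene Epha7 37, Flrt2 35, and Cdh4 22 in 0.361 Mb. A stretch with 11 loci lies between Cdh8 and Cdh11 and is in both counts. Epha3 flanked 16 loci, 5 with all 3 TRs, and the guidance receptor gene Robo1 14, 3 with all 3 TRs. Pcdh17 (21 loci), Cntnap5a (17), and Pcdh7 (14) flanked 0 loci of all 3 TRs in 1.45 to 2.05 Mb.

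The remaining lists were smaller. Of 39 transcription factors of other tissues, 38 were on chr1-19, 14 flanked a desert, and 4 of these (28.6%) a locus of all 3 TRs, with a median of 10.1 loci per Mb. Sall1 stood apart among them with 43 of their 73 loci, 7 with all 3 TRs. Their pooled density was 29.0 loci per Mb with Sall1 and 16.3 without it, a comparison chosen after seeing the data. Without Tle4, the member with the most loci, that of the transcription factors and cofactors of the cortex was 27.8. Gata3 flanked 11, Isl1 7, and Gata6 5. Of 14 interneuron factors, 5 flanked a desert, and 2 of these (40%) a locus of all 3 TRs. Their deserts came to only 0.380 Mb, with a median of 16.0 and a pooled density of 34.2 loci per Mb. Maf (6 loci, 3 with all 3 TRs) and Prox1 (6 and 1) flanked at least 5 loci. Of 102 genes associated with autism spectrum disorder (ASD), 100 matched a mouse gene of the same name on chr1-19, 21 flanked a desert, and 6 (28.6%) a locus of all 3 TRs, as did 28.5% of all flanks. Their median density was 8.91 and their pooled density 15.6 loci per Mb, both below those of all flanks. The RNA-binding protein gene Celf4 flanked 22 loci, Lrrc4c and Tbl1xr1 10 each, Rorb 9, and the glutamate receptor gene Gria2 5. Of 1490 chemoreceptor genes, 3 flanked a desert, and Olfr1505 flanked 25 loci, in the stretch it shares with Tle4.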

How the data were processed

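ChIP-seq libraries of wild-type mouse cortex (24, with 2 biological replicates per TR and stage) were processed by the authors with BWA 0.7.15, SAMtools, and MACS2 2.2.7 on mm10 per the labels. Their methods give a constant genome-wide background, reads extended to 200 bp, and peaks called on separate and then on merged replicates. The lists, attached to the first replicate, are taken as the merged ones. The authors deposited, for each peak, a linear ratio of summit reads to background (fold enrichment), −log10 of the p-value and q-value, a score, and the summit. The deposited score and −log10 q-value were not used.

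Summits on chr1-19 were set against all transcripts of GENCODE vM21 and the GRCm38.p6 sequence (Python 3.11.15, scipy 1.17.1, pandas 2.3.3). Peaks overlapping by 1 base were merged into loci. A locus with any desert peak is a desert locus. 20 peaks of other classes fell in 7 of them. Motifs were counted in 200 bp windows. Background reads per list were fitted to the distinct pairs of fold, taken with a pseudocount of 1, and −log10 p under 60 (100% within 0.02) and turned into reads with the mouse genome size that MACS2 assumes by default. With 1 list per group no test between groups was possible, so shares carry 95% Wilson intervals. Scripts were checked on simulated data. Flanking genes are the nearest protein-coding gene on each side. Named are the flanks of the 10 deserts with most loci of all 3 TRs, of the 10 loci with the highest lowest fold, of the farthest and strongest peak of each list, and list members flanking at least 5 loci. Some of these are not reported here. Members and lists were chosen with earlier results of these data known, and the strongest loci of 1 TR alone were chosen after values were seen. The ASD gene list is the study's own. Alternatives were another distance, protein-coding genes only, stricter or equally long lists and a stricter overlap; leaving out AAC repeats or the gene with the most loci of a list, and adding RefSeq transcripts, were chosen after seeing the data.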

Additional observations from a re-analysis of the deposited data

How the results depend on the processing

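ARID1B kept the highest desert share of the 3 TRs at each stage under the 6 alternatives that give it, which leaves out the reciprocal overlap. Desert shares follow in the order ARID1B, FOXP1, and TCF7L2 at E15.5, then at E18.5. Beyond 200 kb they were 0.795%, 0.518%, 0.153%, 0.764%, 0.261%, and 0.207%, and loci of all 3 TRs made up 7.49% at the earlier and 4.60% at the later stage. With protein-coding genes only they were 17.0%, 13.4%, 7.29%, 16.7%, 7.49%, and 8.96%, loci of all 3 TRs 15.1% and 8.34%, and FOXP1 loci shared by both stages 18.4%. At −log10 p of at least 15, FOXP1 and TCF7L2 at E15.5 had 1.77% and 0.493%, and the E18.5 lists 3.41%, 0.272%, and 0.726%. There, loci of all 3 TRs were 5.48% and 0.801%, and loci shared by both stages 73.1% for ARID1B and 3.54% for FOXP1. With lists of equal length, ARID1B had 3.51% and 3.42%, FOXP1 at E15.5 1.75%, and TCF7L2 at E18.5 1.02%. There, loci of all 3 TRs were 17.0% and 8.94%, and the stages shared 74.3%, 32.2%, and 62.5% for ARID1B, FOXP1, and TCF7L2. With a reciprocal overlap of 50%, these were 5.62% and 2.76%, and 59.1%, 11.2%, and 36.5%. Without AAC repeats, FOXP1 at E18.5 had 0.951%. With RefSeq added, the 6 shares were 2.12%, 1.45%, 0.503%, 2.12%, 0.734%, and 0.667%, loci of all 3 TRs at E15.5 9.41%, and ARID1B loci shared 72.3%. The last 2 alternatives were chosen after seeing the data. The other 22 of 71 values stayed within their interval, and the cause of each shift was not tested.

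No paired analysis was possible because each TR and stage has 1 list, and leaving out a replicate could not be run for the same reason. The recovered reads of FOXP1 at E18.5, 26.3 M, were the fewest of the 6 lists, and their part in its shares was not tested. Gene deserts depend on the annotation, as the shares above show.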
